A study of Mus musculus with 7 samples.

Results

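The caveolins and cavins, with 2 membrane-shaping partners, were followed in mature adipocytes lacking the short-chain fatty acid receptor FFA2. The set held 8 genes chosen by name as parts of the caveola coat, Cav1, Cav2, Cav3, Cavin1, Cavin2, Cavin3, Ehd2 and Pacsin2, among 57010 gene identifiers in the count table. All 8 were found, and 7 of them, all but Cav3, had enough counts to be among the 17039 genes tested. Libraries came from white adipocytes of male mice, 3 labelled FFA2 fl/fl and 4 labelled Adipoq-F2-KO. Both genotypes carried floxed FFA2 alleles, and in Adipoq-F2-KO mice Cre recombinase was driven by the adiponectin promoter, which is active in adipocytes. The animals were littermates housed together on Teklad LM-485 chow without other treatment, and the labels give an age of 20 weeks. Adipocytes were freed from perigonadal fat by collagenase, so cells that adhere to adipocytes may have been carried along, and poly-A RNA was sequenced. The labels do not say whether each library came from a single mouse, and p-values measure the spread between these libraries.

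Caveolae are flask-shaped pits of the plasma membrane and are abundant in adipocytes, endothelial cells and muscle. Caveolins insert into the inner leaflet as a hairpin and build the coat together with cavins, which are peripheral proteins that assemble around it. EHD2 is an ATPase that holds the neck of the pit at the membrane, and pacsin 2 is an F-BAR protein that bends membrane. In adipocytes caveolae are known for holding lipid and insulin-signaling proteins and for giving membrane area when the cell swells, and loss of caveolin 1 or cavin 1 is a known cause of lipodystrophy.

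Ffar2 (ENSMUSG00000051314), the gene that encodes FFA2, was counted 1404, 1346 and 1094 times in FFA2 fl/fl and 67, 38, 48 and 76 times in Adipoq-F2-KO. Its level fell from 34.5 ± 2.77 (SD, n = 3) to 1.69 ± 0.634 (SD, n = 4) normalized CPM (counts per library total after TMM scaling), a log2 fold change of -4.36 (SE 0.22, edgeR adjusted p = 7.97e-06). Adipoq, a defining marker of adipocytes, was at 3452 to 3762 CPM in FFA2 fl/fl and 2419 to 3683 in Adipoq-F2-KO. Total counts per library lay between 30478997 and 39992605. Over all tested genes, edgeR called 1.02% (173 genes) at an adjusted p under 0.05, and 0.217% were called lower in Adipoq-F2-KO. This count depended on which library was left out. It was 1 gene without the first FFA2 fl/fl library, 41 without the second and 5 without the third. It was 11 without KO 2 and 20 without KO 3, but 178 without KO 1 and 166 without KO 4. DESeq2 called 890 genes.

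Promoter sequences are shown for Cav1 and Cavin1, the most abundant members, and for Cavin2, the member with the largest difference. RefSeq windows on GRCm38.p6 were matched for 7 of the 8 members, all but Cavin3, and the 250 bases before the first listed start are printed 5′ to 3′ on the strand of the gene. They are chr6:17306085-17306334 on the plus strand for Cav1, chr11:100970618-100970867 on the minus strand for Cavin1 and chr1:51288876-51289125 on the plus strand for Cavin2. Capitals mark matches on either strand to the letters of common promoter elements, and a match on the opposite strand is printed as its reverse complement. The first element is the TATA box, searched as TATAAA. The second is the CCAAT box, searched by the letters of its name. The third is the GC box, searched as GGGCGG.
Cav1: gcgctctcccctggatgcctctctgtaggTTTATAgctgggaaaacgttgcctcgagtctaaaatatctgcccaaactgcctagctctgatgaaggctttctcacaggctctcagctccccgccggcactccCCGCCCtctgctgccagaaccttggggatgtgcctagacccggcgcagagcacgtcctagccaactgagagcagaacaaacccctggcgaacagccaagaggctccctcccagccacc
Cavin1: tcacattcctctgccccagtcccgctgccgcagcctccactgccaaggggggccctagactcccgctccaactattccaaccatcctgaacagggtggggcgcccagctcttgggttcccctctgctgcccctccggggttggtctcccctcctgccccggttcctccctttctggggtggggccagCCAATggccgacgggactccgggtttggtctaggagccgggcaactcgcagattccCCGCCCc
Cavin2: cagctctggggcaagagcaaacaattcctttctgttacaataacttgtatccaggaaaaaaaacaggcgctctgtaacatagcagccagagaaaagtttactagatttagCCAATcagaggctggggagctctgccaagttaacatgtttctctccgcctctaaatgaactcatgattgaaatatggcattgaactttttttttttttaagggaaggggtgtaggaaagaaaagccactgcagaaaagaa
The Cav1 window held 10 CpG dinucleotides and the Cavin1 window 12, whereas the Cavin2 window held 2, and the median of 32841 windows was 6. A CCAAT match was present in Cavin1 and Cavin2, as in 33.9% of all windows, and a GGGCGG match on the opposite strand in Cav1 and Cavin1, as in 32.7% of all windows on either strand. The Cav1 window also held TATAAA on the opposite strand, where 12.4% of windows held it on either strand. These matches are letters in a window and were not measured as bound sites.

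Cav1, the caveolin that is needed for caveolae outside striated muscle, was the most abundant member of the coat. It was counted as ENSMUSG00000007655, which the deposited table places on chromosome 6 from 17306334 to 17341451 on the plus strand. In FFA2 fl/fl adipocytes its level was 2925, 2887 and 3069 normalized CPM, and in Adipoq-F2-KO adipocytes it was 2760, 2914, 2774 and 2814. The ranges overlapped, with KO 2 inside the range of the controls and the other 3 KO libraries below it. The means were 2960 ± 95.8 (SD, n = 3) and 2816 ± 69.5 (SD, n = 4), a log2 fold change of -0.07 (SE 0.08, 95% interval -0.26 to 0.11, edgeR adjusted p = 0.698). As a percentage of the control level, the interval of the difference ran from -16.3% to 8.13%.

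Cav2, which forms mixed oligomers with caveolin 1 and depends on it to reach the cell surface, showed the smallest log2 fold change of the 7 tested members. Its gene (ENSMUSG00000000058, chromosome 6, 17281184 to 17289114, plus strand) ends 17219 bases before Cav1 on the same strand. Levels were 287.1, 310.5 and 313.9 normalized CPM in FFA2 fl/fl and 297.8, 315.8, 291.8 and 295.6 in Adipoq-F2-KO. The libraries of the 2 genotypes were interleaved. The log2 fold change was -0.02 (SE 0.08, 95% interval -0.20 to 0.16, edgeR adjusted p = 0.941), and its sign turned when the third FFA2 fl/fl library was left out (0.02). Per kilobase of exon, Cav1 was between 8.935 and 9.863 times as abundant as Cav2 in each library.

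Cav3, the caveolin of skeletal and cardiac muscle, was not detected in 6 of the 7 libraries. It had 6 counts in KO 1, or 0.1504 CPM, and 0 counts elsewhere (ENSMUSG00000062694, chromosome 6, 112436466 to 112449833, plus strand). Between 85.5 and 88.8% of low counts in a library were even, as when each fragment adds a count for both of its mates, and 6 counts then stand for 3 fragments. A count of 0 allowed up to 0.15 to 0.197 CPM, depending on the library, a limit that covers counting error alone. Both genotypes were thus at or under the limit and no fold change is given. Of 9 skeletal and cardiac muscle markers, 5 could be tested, Ckm was at 0 in all 7 libraries, and the summed level of the list was 72.61 to 85.34 CPM in FFA2 fl/fl and 53.06 to 81.4 in Adipoq-F2-KO.

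**Figure D1:**
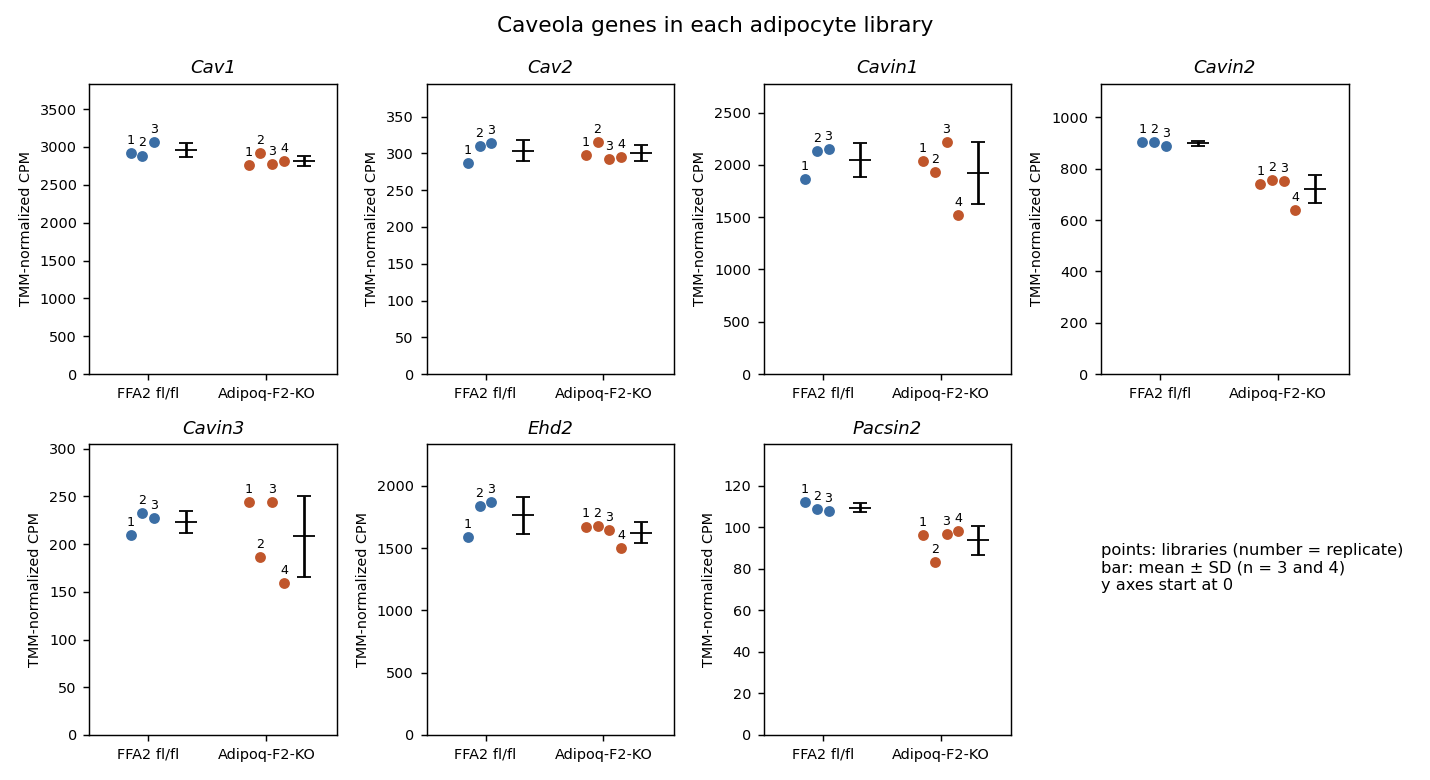
Normalized CPM of the 7 tested members in each of the 7 libraries, with 1 panel and 1 linear axis per gene, points for libraries and bars for the mean and SD of each genotype. Cavin2 (888.3 to 905.1 against 637.4 to 754.4) and Pacsin2 (107.7 to 111.9 against 83.05 to 98.26) are the panels in which the genotypes do not overlap.

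Cavin1, without which caveolae do not form, differed between the genotypes by less than the spread of its libraries. The deposited table gives ENSMUSG00000004044 on chromosome 11 from 100847559 to 100861713 on the minus strand. Its level was 1861, 2132 and 2156 normalized CPM in FFA2 fl/fl and 2036, 1928, 2221 and 1519 in Adipoq-F2-KO. Both the highest and the lowest value belonged to the KO group. The log2 fold change was -0.09 (SE 0.13, 95% interval -0.37 to 0.19, edgeR adjusted p = 0.757), and without KO 4 it was 0.01, so the sign of the difference rests on that library. The exons of Cavin1 share 898 bases with those of the antisense gene ENSMUSG00000120984, which had at most 488 counts in a library. The strand option of the counting is not given in the sources used here, so reads in that stretch may have been assigned to neither gene or to both.

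Cavin2, a cavin that binds phosphatidylserine, had the largest difference of the set. Its level was 903.1, 905.1 and 888.3 normalized CPM in FFA2 fl/fl adipocytes and 739.3, 754.4, 751.5 and 637.4 in Adipoq-F2-KO adipocytes (ENSMUSG00000045954, chromosome 1, 51328285 to 51342119, plus strand). All 4 KO libraries were below all 3 controls, and KO 4 was the lowest. The means were 898.8 ± 9.21 (SD, n = 3) and 720.7 ± 55.9 (SD, n = 4), a fitted difference of -19.8% with a 95% interval from -30.2% to -7.91%. The log2 fold change of -0.32 (SE 0.09) had an unadjusted p of 0.00479 and an adjusted p of 0.113 in edgeR, so Cavin2 was not called. DESeq2 gave the same size (-0.31) with an adjusted p of 0.0128 and called it, where DESeq2 called 6.21% of the 14342 genes to which it gave an adjusted p, and 1.53% as lower. Over the 14 alternatives the adjusted p of Cavin2 ranged from 0.0128 to 0.345, and the difference kept its sign. A two-sided exact permutation test gave p = 0.0286, the smallest value possible with 3 and 4 libraries.

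Cavin3, which also binds protein kinase C delta, had overlapping levels and the widest spread of the set. FFA2 fl/fl libraries had 209.6, 232.2 and 227.3 normalized CPM, and Adipoq-F2-KO libraries had 243.7, 186, 243.7 and 159.4 (ENSMUSG00000037060, chromosome 7, 105129290 to 105131507, minus strand). KO 1 and KO 3 lay above the controls, and KO 2 and KO 4 below them. The log2 fold change was -0.10 (SE 0.14, 95% interval -0.41 to 0.21, edgeR adjusted p = 0.761), and it was 0.01 without KO 4. The antisense gene Gm45667 shares 374 exon bases with Cavin3 and had at most 12 counts in a library.

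Ehd2, which stabilizes the caveola neck, was measured at 1590, 1834 and 1866 normalized CPM in FFA2 fl/fl and at 1673, 1675, 1648 and 1499 in Adipoq-F2-KO (ENSMUSG00000074364, chromosome 7, 15680883 to 15701492, minus strand). The ranges overlapped because the first control was lower than 3 of the 4 KO libraries. The log2 fold change was -0.12 (SE 0.09, 95% interval -0.33 to 0.09, edgeR adjusted p = 0.549).

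Pacsin2, the F-BAR protein, was the least abundant tested member and, with Cavin2, the only one whose genotypes did not overlap. Its level was 111.9, 108.8 and 107.7 normalized CPM in FFA2 fl/fl and 96.26, 83.05, 96.88 and 98.26 in Adipoq-F2-KO (ENSMUSG00000016664, chromosome 15, 83259808 to 83348807, minus strand). Each KO library was under each control, and the lowest was KO 2, not KO 4. The means were 109.4 ± 2.17 (SD, n = 3) and 93.61 ± 7.09 (SD, n = 4), a fitted difference of -14.5% with a 95% interval from -25.2% to -2.15%. The log2 fold change of -0.23 (SE 0.09) had an unadjusted p of 0.0266 and an adjusted p of 0.216 in edgeR, and DESeq2 did not call it (adjusted p = 0.169).

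Read over the set, 0 of the 7 tested members were called by edgeR and 1 was called by DESeq2. All 7 fitted log2 fold changes were below 0, with a median of -0.10, where 49.6% of all tested genes were below 0 and their median was 0.00. The members are not independent (Cavin1 and Cavin3 had a Pearson r of 0.911 over the libraries). The signs of Cav2, Cavin1 and Cavin3 each turned when a certain library was left out. Adipocyte markers were also lower for 10 of 10 genes, with a median log2 fold change of -0.30. At an unadjusted p under 0.05, 2 of 7 members were lower (Cavin2 and Pacsin2), against 7.37% of all genes lower and 17.9% in either direction. The same 2 were the members without overlap, against 8.72% of all genes without overlap and lower, 8.86% without overlap and higher, and 17.6% in either direction. The members were chosen with earlier results of these data known, so shares above those of all genes are no test of the set.

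**Figure D2:**
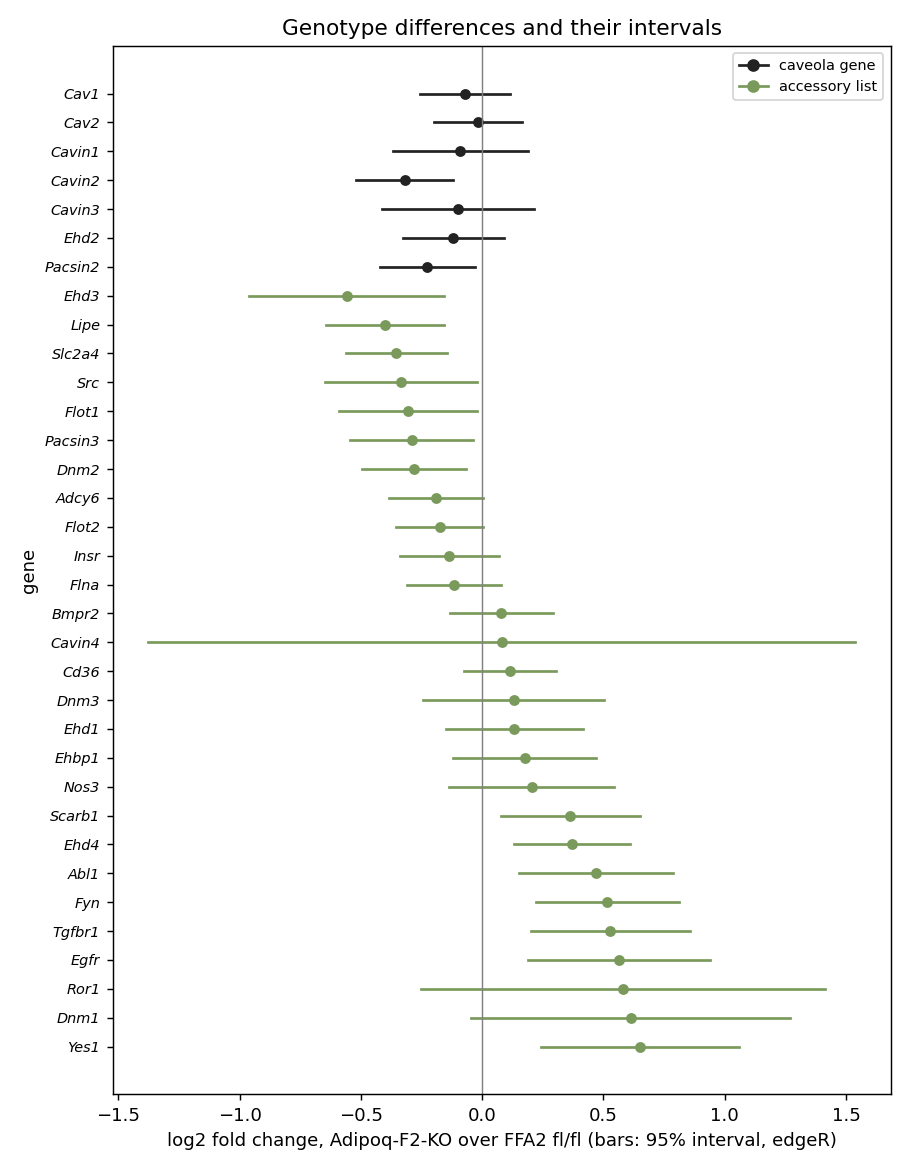
Log2 fold change in Adipoq-F2-KO against FFA2 fl/fl with its 95% interval from edgeR, and a line at 0 for no difference. Tested members are in black, and the 27 tested genes of the accessory list described below are in green. Among members, the intervals of Cavin2 (-0.52 to -0.12) and Pacsin2 (-0.42 to -0.03) lie under 0 before adjustment over all genes. Those of the other 5 members include 0.

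Levels can be compared between genes per kilobase of exon, and on this scale the coat kept 1 order in all 7 libraries. Cav1 came first with a mean of 835.5 CPM per kilobase, then Cavin1 with 551.7, Ehd2 with 328.9, Cavin2 with 260.9, Cavin3 with 129.1, Cav2 with 90.49 and Pacsin2 with 20.46. Among all tested genes Cav1 ranked between 36 and 41 by this measure, and Cavin1 between 48 and 62. Ehd2 and Cavin2 were also near the top, with ranks of 85 to 106 and 104 to 142, whereas Pacsin2 ranked between 1823 and 2326. No pair of neighbours in the order changed places in any library. The pair closest by ratio was Ehd2 and Cavin2, at 310.6 and 295.6 CPM per kilobase in the first FFA2 fl/fl library.

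**Figure D3:**
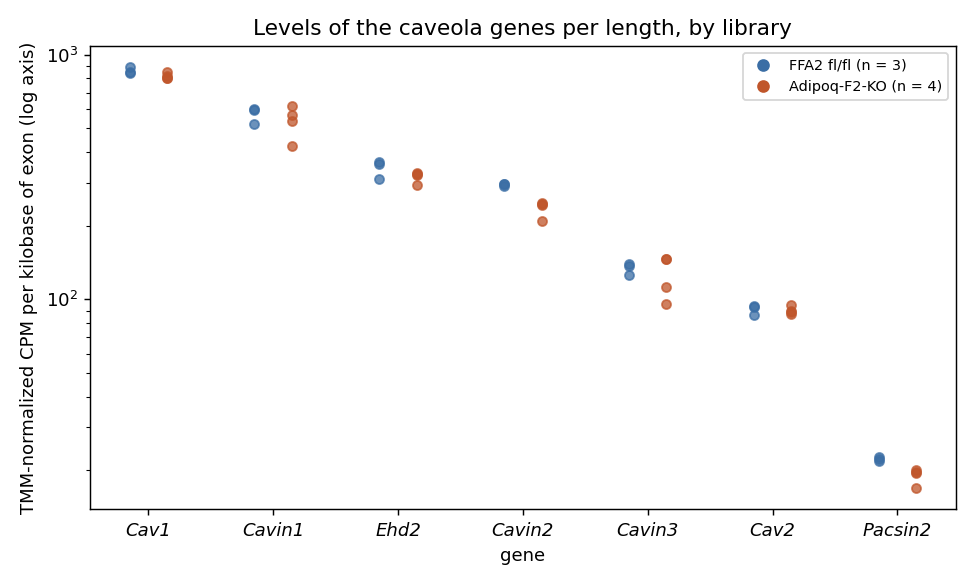
CPM per kilobase of exon of the 7 tested members on a log axis, with 1 point per library and the genotypes in separate colors. The order from Cav1 (mean 835.5) to Pacsin2 (mean 20.46) is the same in all 7 libraries.

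Cav1 took 35.8 to 42% of the summed per-kilobase level of the 7 members, and Cavin1 took 21.8 to 27.6%. The ratio of Cav1 to Cavin1 per kilobase was 1.636, 1.411 and 1.482 in FFA2 fl/fl and 1.412, 1.574, 1.301 and 1.93 in Adipoq-F2-KO. The genotypes overlapped, and the lowest and highest ratios were both in KO libraries. The ratio of Cavin2 to Cavin1 was 0.5696, 0.4986 and 0.4837 in FFA2 fl/fl and 0.4264, 0.4593, 0.3973 and 0.4928 in Adipoq-F2-KO, with KO 4 inside the range of the controls. Against Cav1, a ratio chosen after the values were seen, Cavin2 was at 0.3481, 0.3534 and 0.3263 in FFA2 fl/fl and at 0.302, 0.2918, 0.3054 and 0.2554 in Adipoq-F2-KO, without overlap. The ratio of Cavin3 to Cavin1 stayed between 0.2081 and 0.2583 and overlapped.

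The 2 most abundant coat genes had different spreads between libraries of 1 genotype. Cav1 had a within-genotype SD of 0.04 on the log2 scale, at percentile 1.19 of the 1676 genes with at least 100 CPM, whereas Cavin1 had an SD of 0.20, at percentile 77. Cavin3 was the most variable at 0.24 (percentile 86.6), and Cav2 was among the least variable at 0.06 (percentile 6.03). The median gene of this level had an SD of 0.13. Across the 7 libraries Cavin1 and Cavin3 had a Pearson r of 0.911, while Cav1 and Cavin1 had an r of 0.171. These values describe 7 libraries that share preparation and genotype differences, and genes in them are not independent.

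As a further description of the patterns, the 5 genes most like Cav1 among the 8564 that averaged 10 CPM or more were Heatr6, Slit3, Lrrc40, Ncoa4 and Trim44, with r from 0.964 to 0.959 over the 7 libraries. Those most like Cavin1 were Gnai1, 6530402F18Rik, Thumpd3, Ech1 and Cpne2, with r from 0.974 to 0.967. No gene was on both lists. These r values were picked as the highest of 8564, over 7 libraries that also differ by genotype, and were not tested.

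The library KO 4 was low for part of the coat. In the test for a single distant library given in the closing sections, it was past the critical value for Cavin2 and Ehd2, but not for Cavin1 or Cavin3. Set against the mean of the controls, it had 74.1% of Cavin1, 70.9% of Cavin2, 71.5% of Cavin3 and 85% of Ehd2, the lowest value of the 7 libraries for each. It was not the lowest for Cav1 (95.1%), Cav2 (97.3%) or Pacsin2 (89.8%). The summed level of 10 adipocyte markers in KO 4 was 70.6% of the control mean, also the lowest, and that of 12 endothelial markers was 181%. The other KO libraries had 85.8 to 93.3% of the adipocyte sum, and 115 to 132% of the endothelial sum.

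**Figure D4:**
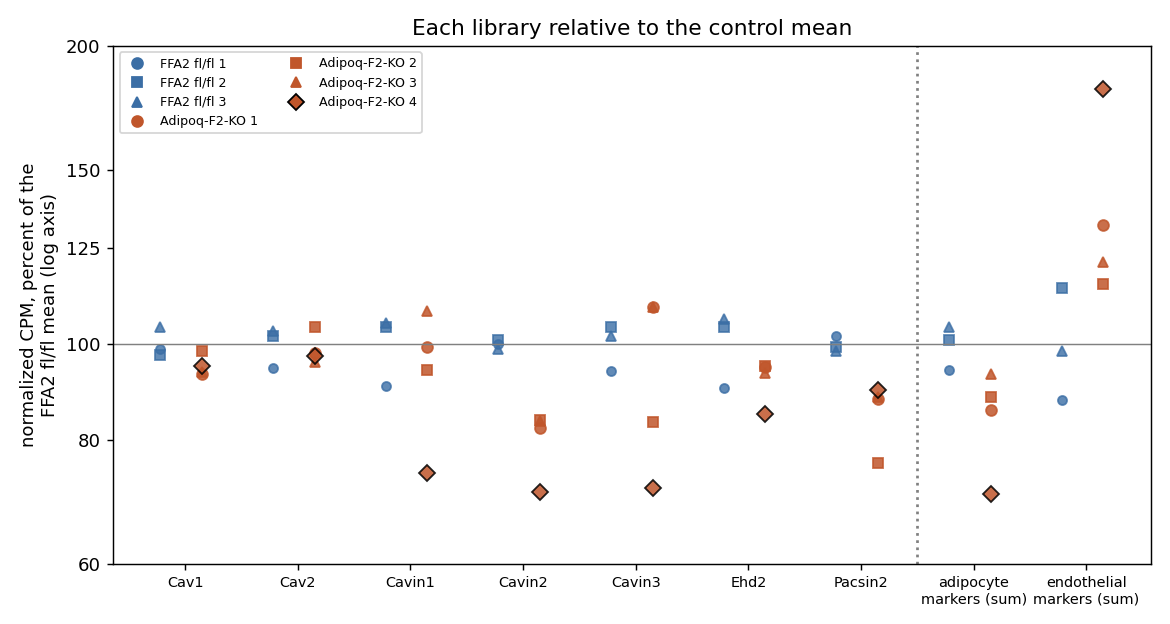
Level of each tested member and of the adipocyte and endothelial marker sums in each library, as a percentage of the FFA2 fl/fl mean on a log axis. KO 4 is lowest for Cavin1 (74.1%), Cavin2 (70.9%), Cavin3 (71.5%) and Ehd2 (85%), while Cav1 stays between 93.2 and 98.4% in the KO libraries.

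Marker lists of adipocytes and of other cells were read in the same libraries. Of these markers edgeR called 2, both of macrophages, where it called 1.02% of all tested genes. Of all tested genes, 49.6% were lower. Adipocyte markers were lower for 10 of 10 genes, with 0 called, and their sum was 48250 to 53590 CPM in FFA2 fl/fl and 36210 to 47870 in Adipoq-F2-KO. Endothelial cells, which carry many caveolae, had 12 of 12 markers higher with 0 called and sums of 1217 to 1580 and 1602 to 2516 CPM. Smooth muscle and pericyte markers were higher for 6 of 9 genes (sums 649.8 to 767.5 and 774.6 to 1356 CPM), and fibroblast progenitor markers for 7 of 8 (815.9 to 1091 and 1159 to 1350 CPM). Macrophage markers were higher for 11 of 12 genes, of which Lyz2 and Cd68 were called by edgeR, with sums of 333 to 399.1 and 493.3 to 585.3 CPM. Of 5 mesothelial markers 2 were higher, with sums of 9.69 to 25.22 and 7.24 to 10.78 CPM. Germ cell markers were at 0 to 0.6044 CPM in FFA2 fl/fl and 1.694 to 109.9 in Adipoq-F2-KO, the highest being KO 2. At an unadjusted p under 0.05 in edgeR, 5 of 10 adipocyte markers were lower, against 17.9% of all genes in either direction. Higher at that threshold were 8 of 12 endothelial, 9 of 12 macrophage, 3 of 8 fibroblast progenitor and 2 of 9 smooth muscle and pericyte markers. In these 5 lists, 0 markers passed it in the other direction. The lists were chosen with earlier results known, so these shares are no test. The part of these marker levels in the values of Cavin2, Pacsin2 and the other members was not tested. In these bulk libraries, fewer cells of a type and less RNA per cell cannot be told apart.

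Without KO 4, the log2 fold change of Cavin2 was -0.26 and that of Pacsin2 was -0.25, and neither gene was called by edgeR.

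Other proteins of caveolae and relatives of the coat were taken as a list of 28 genes, and 27 of them were tested. Of these, 16 were higher and 11 lower in Adipoq-F2-KO. Their median log2 fold change was 0.12, and edgeR called 0 of them. At an unadjusted p under 0.05 there were 7 higher and 7 lower, or 14 of 27, against the 17.9% of all genes given above. Of the 27, 13 did not overlap between genotypes, against 17.6%. The list was chosen with earlier results of these data known, so shares above those of all genes are no test of the list. DESeq2 called 9 genes of the list, 6 higher and 3 lower, where it called 6.21% of all genes (890). Leaving out KO 1 gave 2 calls by edgeR among 178 genes called in all, Tgfbr1 (adjusted p = 0.0414) and Ehd3 (adjusted p = 0.045).

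The 4 genes of the list with the smallest p had 2 in each direction. Slc2a4, the insulin-responsive glucose transporter GLUT4, was at 217.3, 222.2 and 254 normalized CPM in FFA2 fl/fl and 191, 171.5, 193.2 and 167.2 in Adipoq-F2-KO (log2 fold change -0.35, SE 0.09, edgeR adjusted p = 0.098). Lipe, the hormone-sensitive lipase, was at 2055, 2042 and 2090 in FFA2 fl/fl and 1683, 1602, 1698 and 1271 in Adipoq-F2-KO (log2 fold change -0.40, SE 0.11, edgeR adjusted p = 0.104). Both had all KO libraries under the controls, and Lipe also belongs to the adipocyte markers. Fyn, a Src-family kinase that phosphorylates caveolin 1, was at 18, 22.08 and 17.05 in FFA2 fl/fl and 29.58, 23.72, 25.33 and 30.32 in Adipoq-F2-KO (log2 fold change 0.52, SE 0.13, edgeR adjusted p = 0.09). Tgfbr1, a receptor of transforming growth factor beta, was at 25.42, 27.77 and 25.42 in FFA2 fl/fl and 28.27, 39.82, 36.81 and 46.4 in Adipoq-F2-KO (log2 fold change 0.53, SE 0.15, edgeR adjusted p = 0.11). Both had all KO libraries above the controls.

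By role, the relatives of the members had 3 genes higher and 2 lower, the dynamins and anchoring proteins 3 higher and 2 lower, the kinases of caveolin 1 had 3 higher and 1 lower, and the proteins held in or regulated by caveolae 6 higher and 4 lower. The flotillins, which mark other membrane domains, were both lower without overlap (Flot1 -0.31, edgeR adjusted p = 0.251, and Flot2 -0.17, edgeR adjusted p = 0.294). Ror1, a receptor that binds cavin 1 and caveolin 1, had a log2 fold change of 0.58 with overlapping genotypes (95% interval -0.25 to 1.41, edgeR adjusted p = 0.454). The single genes named in this paragraph were chosen after their values were seen. Among relatives, Ehd3 had a log2 fold change of -0.56 (edgeR adjusted p = 0.152) with overlapping genotypes. Ehd4 had one of 0.37 (edgeR adjusted p = 0.122) without overlap, so that the EHD family was not of 1 direction. Cavin4, the muscle cavin, was at 0.7021 CPM in FFA2 fl/fl and 0.7408 CPM in Adipoq-F2-KO, and Pacsin1, the neuronal pacsin, was too low to be tested, with at most 10 counts in a library. Cd36, the fatty acid transporter of the adipocyte surface, was at 3016 ± 41.4 (SD, n = 3) and 3266 ± 152 (SD, n = 4) CPM. All its KO libraries (3164 to 3492) were above the controls (2972 to 3054), and it was not called (edgeR adjusted p = 0.524).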

How the data were processed

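RNA from mature perigonadal adipocytes (3 libraries labelled FFA2 fl/fl, 4 labelled Adipoq-F2-KO) was sequenced as stranded poly-A libraries with paired reads of 150 bases. The authors used Trimmomatic for trimming, STAR for alignment and featureCounts for counting, and they deposited raw counts per gene with gene coordinates and summed exon length. For normalization and differential expression they used DESeq2, which is run here as an alternative. Versions and the strand and overlap options are not given in the sources used here. The submitters' processing notes name GRCm38 and mm10, but only 2 of 8 members started within 1 base of their GRCm38.p6 RefSeq position, so gene coordinates are given as deposited, without a build. No row lacked a gene (0), and every count column matched to a sample was used.

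The 8 members were found by symbol. Genes were filtered with filterByExpr, normalized by TMM (factors 0.968 to 1.02) and tested with edgeR 4.0.16 (quasi-likelihood, two-sided, genotype as the only term) in R 4.3.3, with Benjamini-Hochberg adjustment over 17039 genes. Intervals are 95% intervals from the F test. DESeq2 1.42.0 (adjusted p under 0.05), limma voom (3.58.1), other scalings and filters, a replicate block and leaving out each library were alternatives. Pairs of libraries of 1 genotype differed beyond sampling noise (chi-square divided by its degrees of freedom, 41.5 to 165). The fits were tested on simulated data.

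The members and lists were chosen with earlier results of these data known. Named genes are the members, Ffar2, and any gene of the 28-gene list called in the main edgeR fit, with its 4 smallest p. The 5 genes most correlated with Cav1 and with Cavin1 at a mean of at least 10 CPM are also named. Other names from the 28-gene list were chosen after values were seen. Of the markers, Adipoq is named as a reference, Lyz2 and Cd68 as called, and Ckm as undetected. Antisense genes are named for the exon bases they share with members. Marker lists covered adipocytes, endothelial cells, macrophages, fibroblast progenitors, smooth muscle and pericytes, striated muscle, mesothelium and germ cells.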

Additional observations from a re-analysis of the deposited data

Results flagged for a closer look

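A test for a single library far from the rest of its group was run on 26 groups of 4 libraries, and 4 were past its critical value, where chance gives about 1 in 20. Cavin2 in KO 4 was at 637.4 normalized CPM, under the 739.3 to 754.4 of the other KO libraries. Ehd2 in KO 4 was at 1499, under 1648 to 1675 in the others. Pacsin2 was lowest in another library, KO 2, at 83.05 against 96.26 to 98.26. The summed germ cell markers in KO 2 were at 109.9 CPM, against 1.694 to 10.03 in the other KO libraries. Groups of 3, such as the FFA2 fl/fl libraries, were not tested. The cause of these departures was not tested.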

How the results depend on the processing

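Of 98 member log2 fold changes under alternatives, 94 were below 0 and 1 was called. DESeq2 called Cavin2 (-0.31), so 1 member, with 9 genes of the 28-gene list and 890 genes in all (670 higher, 220 lower). A filter of at least 1 count in total gave 9 genes of that list and 1403 genes in all (1071 higher, 332 lower). Leaving out 1 library gave between 1 (without the first FFA2 fl/fl library) and 178 (without KO 1) called genes, from 173. The count was 5 without the third FFA2 fl/fl library and 41 without the second. It was 11 without KO 2, 20 without KO 3 and 166 without KO 4. Leaving out 1 library gave 0 members and 0 to 2 genes of the list. The log2 fold changes then ranged from -0.09 to -0.03 for Cav1, -0.0575 to 0.0187 for Cav2, -0.16 to 0.01 for Cavin1, -0.34 to -0.26 for Cavin2, -0.18 to 0.01 for Cavin3, -0.19 to -0.06 for Ehd2 and -0.25 to -0.17 for Pacsin2. Cav2 turned without the third FFA2 fl/fl library (0.0187), and Cavin1 (0.0087) and Cavin3 (0.0092) turned without KO 4.

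Replicate numbers are shared by the genotypes, but same-numbered libraries did not deviate together over all tested genes (correlations 0.044, -0.025 and -0.027). These correlations include many genes with low counts and cannot exclude a pairing that the labels do not give. With a replicate block, in which KO 4 has no partner, Cavin1 turned to 0.0092 (SE 0.08, adjusted p = 0.975), Cavin2 was at -0.26 (adjusted p = 0.161), and 224 genes were called. The cause of these differences between settings was not tested. Depth limits what can be said of Cav3. The width of the other intervals comes with 3 and 4 libraries.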
